A study of Arabidopsis thaliana with 11 samples.

Results

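The genes described here fold proteins in the endoplasmic reticulum (ER) of Arabidopsis thaliana or signal that folding there has failed. They are IRE1A (AT2G17520), IRE1B (AT5G24360), BZIP60 (AT1G42990), BZIP28 (AT3G10800), BIP1 (AT5G28540), BIP2 (AT5G42020), CNX1 (AT5G61790), CRT1 (AT1G56340) and CRT3 (AT1G08450). They were chosen by function, and every listed intron of each was taken at both splice sites, which gave 9 of 22121 genes and 53 of 121244 introns. The RNA came from 10-day-old seedlings of the accession Col-0, and the labels name no stress treatment. CB-RNA (2 libraries) and RNAe + RNAf (2 libraries) were preparations of chromatin-bound RNA from which only rRNA was removed, so that both hold elongating and polyadenylated transcripts. RNAe (2 libraries) was chromatin-bound RNA without rRNA and without polyadenylated RNA, RNAf (2 libraries) was the polyadenylated RNA of chromatin alone, and mRNA (3 libraries) was mature messenger RNA. The comparisons ask how much of each intron is removed while the gene is still being transcribed, how much after polyadenylation on chromatin, and how much is left in mature mRNA.

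As background, secreted and membrane proteins fold in the ER with the help of the BiP chaperones and of the lectin chaperones calnexin and calreticulin, which hold glycoproteins until they are folded. When unfolded proteins accumulate, the membrane sensor IRE1 cuts an unconventional intron out of the BZIP60 mRNA in the cytoplasm, and BZIP28 is moved to the Golgi and cleaved there, and both factors then enter the nucleus and switch on chaperone genes. The splicing measured here is that of the spliceosome, and the unconventional intron of BZIP60 is not among the introns listed.

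The measure is the splice site (SS) ratio, which is intronic reads over the adjacent exonic reads at the 5' splice site (5'SS) or 3' splice site (3'SS) of an intron, so that 0 means fully spliced. Each value is pooled over the libraries of its group, so there is no spread between libraries and no test between groups, and the 95% Wilson intervals given cover counting error only. The windows of the members held 16735 exonic reads for CB-RNA, 12090 for RNAe, 10340 for RNAe + RNAf, 50455 for RNAf and 211866 for mRNA, and the median member intron had 81 exonic reads at the 5'SS in RNAe + RNAf and 1088 in mRNA. Single introns were therefore measured least precisely in RNAe + RNAf, and counts of introns below use only those with at least 20 exonic reads. The seedling label was checked on the mRNA, in which RCA, the Rubisco activase of green tissue, had the most exonic reads of all counted genes and the seed storage gene CRU3 stood at percentile 21.5.

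The following sequences, read from the RefSeq copy of the genome (TAIR10.1), show the introns on which the results turn. Introns 6 and 7 of CRT1 are shown because these neighbours had the highest and the lowest ratios of that gene in elongating RNA. Both lie within the coding region on the minus strand, at chr1:21090867-21091016 and chr1:21090715-21090798, with the first GT and the final AG in capitals:
CRT1 intron 6: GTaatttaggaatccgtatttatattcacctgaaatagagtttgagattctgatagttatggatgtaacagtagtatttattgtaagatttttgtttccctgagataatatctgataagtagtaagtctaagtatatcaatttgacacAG
CRT1 intron 7: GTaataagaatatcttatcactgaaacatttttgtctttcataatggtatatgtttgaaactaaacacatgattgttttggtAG

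The 5'SS sequences below give 3 exonic and 6 intronic bases, with the first intronic dinucleotide in capitals. They are from introns at the extremes of the ratios or folds, and from CRT3 intron 9, which follows intron 8. Of the 53 member introns, 52 began with GT and ended with AG, and the exception was intron 8 of CRT3 (chr1:2669134-2669225, minus strand), which begins with GC:
CRT3 intron 8: cagGCatgt
CRT3 intron 9: cagGTaagt
BZIP60 intron 1: aagGTatat
IRE1A intron 4: gagGTtaat
Each site was scored against the base frequencies of all 121170 nuclear introns whose start lies before their end. The median member 5'SS stood at percentile 74.8 of all introns and the median 3'SS at percentile 62.4. The 5'SS of CRT3 intron 9 stood at percentile 99.6 and that of intron 8 at 11.98. In RNAf, as described below, intron 9 had the higher ratio of the 2. Their 5'SS ratios were 0.387 and 0.0989 in CB-RNA, and closer in RNAe, at 0.150 and 0.129. Whether the site score plays a part was not tested. All 53 introns lie within the coding region of a RefSeq transcript except the first intron of IRE1A, which lies in the untranslated part. The median length was 93 bp against 99 bp over all introns, from 71 bp in IRE1B to 510 bp in BZIP60.

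The member introns had chromatin ratios near those of all introns and lower ratios in mRNA. The median 5'SS ratio of the members was 0.280 for CB-RNA, 0.269 for RNAe, 0.228 for RNAe + RNAf, 0.0467 for RNAf and 0.00397 for mRNA. Over all introns the medians were 0.277, 0.293, 0.246, 0.0454 and 0.00635 in the same order. At the 3'SS the members had 0.318, 0.271, 0.252, 0.0550 and 0.00517, against 0.301, 0.323, 0.274, 0.0580 and 0.00743 over all introns. The fall from elongating to polyadenylated chromatin RNA and on to mRNA was seen at both sites of every gene, with the intervals of RNAe, RNAf and mRNA apart, as the plot of gene ratios shows, while the intervals of RNAe + RNAf and RNAf overlapped for BZIP28.

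**Figure D1:**
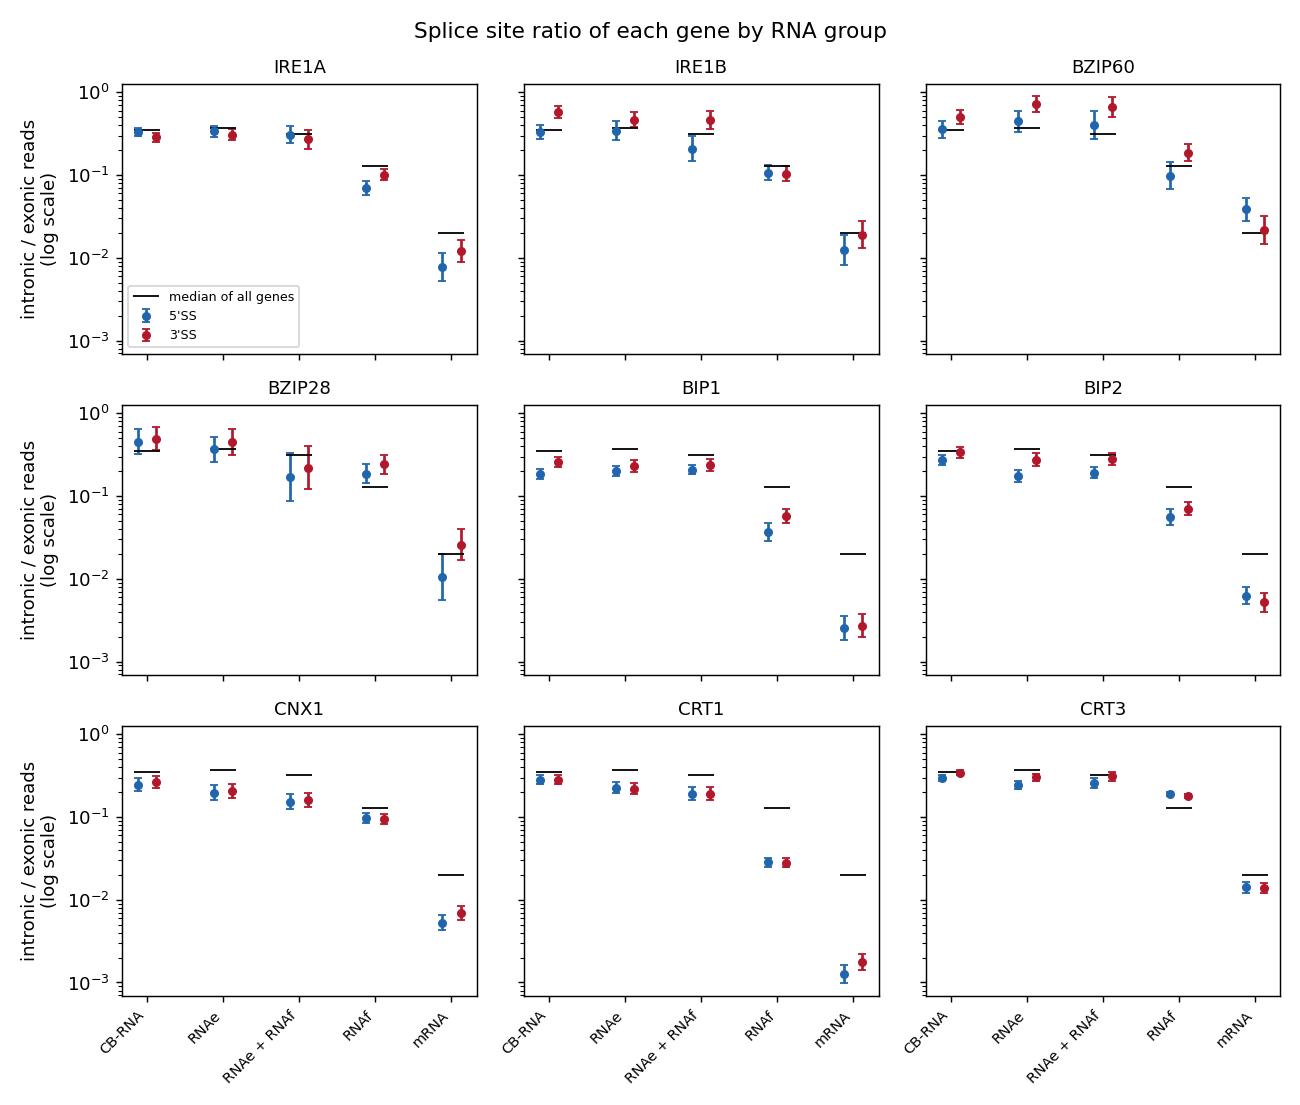
Ratio of intronic to exonic reads (log scale) of each gene, summed over its introns, in the 5 RNA groups, with 95% Wilson intervals of counting error. The black bar is the mean of the 5'SS and 3'SS medians over all genes with at least 100 exonic reads. CRT1 had the lowest mRNA ratio (0.00127 at the 5'SS), and CRT3 and BZIP28 lay above the RNAf bar at both sites.

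IRE1A and IRE1B encode the membrane sensors, which carry a kinase and a ribonuclease domain. The 5'SS ratio of IRE1A was 0.331 for CB-RNA, 0.339 for RNAe, 0.308 for RNAe + RNAf, 0.0699 for RNAf and 0.00769 for mRNA. That of IRE1B was 0.336, 0.346, 0.208, 0.107 and 0.0124 in the same order. The 5'SS intervals of the pair overlapped in every group but RNAf, where they lay apart and that of IRE1A ran from 0.0577 to 0.0848 and that of IRE1B from 0.0877 to 0.131. At the 3'SS, IRE1B was higher than IRE1A in CB-RNA (0.577 against 0.285) and in RNAe (0.467 against 0.308), with intervals apart, and their intervals overlapped in RNAf (0.102 with an interval from 0.0867 to 0.119 in IRE1A, and 0.104 from 0.0846 to 0.128 in IRE1B).

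Within IRE1A, intron 4 was the least spliced in RNAe and intron 2 among the most spliced. Intron 4 had a 3'SS ratio of 0.576 in CB-RNA, 1.43 in RNAe (0.944 to 2.17, from 53 intronic and 37 exonic reads), 0.483 for RNAe + RNAf, 0.227 for RNAf and 0.0208 for mRNA. The RNAe value stood at percentile 99.8 of all introns, and its interval did not overlap that of CB-RNA. Intron 2 had a 5'SS ratio of 0.0446 in CB-RNA and 0.0797 in RNAe, with 0 intronic beside 36 exonic reads in RNAe + RNAf and 0 beside 375 in mRNA. Intron 1, in the untranslated part, went the other way between RNAf and mRNA: its 5'SS had 0 intronic beside 75 exonic reads in RNAf and 8 beside 401 in mRNA, and the upper end of the RNAf interval (0.0512) lay above the mRNA ratio of 0.01995. At the 3'SS of this intron the RNAf ratio (0.0521) was above the mRNA ratio (0.0156).

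Within IRE1B, intron 2 stood apart in polyadenylated chromatin RNA. Its 5'SS ratio was 0.280 for CB-RNA, 0.384 for RNAe, 0.254 for RNAe + RNAf, 0.326 for RNAf and 0.0229 for mRNA, so that the 4 chromatin values lay close together while mRNA was low. Its 3'SS ratio was 0.372 in RNAf and 0.0473 in mRNA. The first intron carries few exonic reads at its 3'SS, with 1 intronic beside 2 exonic reads in mRNA against 279 exonic reads at its 5'SS. RefSeq transcripts differ there, since one intron runs from 8316758 to 8316828 and another from the same start to 8316937 on chromosome 5. The longer one is printed with the 49 bases that another transcript keeps as an exon in capitals (chr5:8316758-8316937, plus strand):
IRE1B first intron: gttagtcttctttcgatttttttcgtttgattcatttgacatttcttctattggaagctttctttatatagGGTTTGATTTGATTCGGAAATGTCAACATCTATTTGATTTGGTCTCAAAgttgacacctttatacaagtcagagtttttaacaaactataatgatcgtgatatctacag
Leaving out the first intron, a choice made after the values were seen, gave IRE1B a 5'SS ratio of 0.420 instead of 0.336 in CB-RNA and 0.114 instead of 0.107 in RNAf. Its 3'SS ratio was then 0.510 instead of 0.577 in CB-RNA and 0.439 instead of 0.467 in RNAe.

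BZIP60 and BZIP28 encode the membrane-bound transcription factors of the response, and each has 1 listed intron. The 510-bp intron of BZIP60 (chr1:16136513-16137022, minus strand) had 3'SS ratios of 0.502 for CB-RNA, 0.729 for RNAe, 0.672 for RNAe + RNAf, 0.187 for RNAf and 0.0218 for mRNA. Its 5'SS ratios were 0.357, 0.447, 0.402, 0.0987 and 0.0386 in the same order. Among all genes, its 3'SS ratio stood at percentile 94.8 in RNAe and 50.5 in mRNA, and its 5'SS ratio at percentile 70.7 in mRNA. The 77-bp intron of BZIP28 (chr3:3380902-3380978, plus strand) had 5'SS ratios of 0.455, 0.368, 0.169, 0.187 and 0.0106 in that order of groups. BZIP28 was thus lower than BZIP60 in RNAe + RNAf at the 3'SS (0.220 with an interval from 0.122 to 0.398, against 0.509 to 0.888). In RNAf at the 5'SS, the interval of BZIP28 began at 0.142 and that of BZIP60 ended at 0.143, so that these overlapped.

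BIP1 and BIP2 encode near-identical ER chaperones of the heat shock protein type. Exons 2 to 5 have the same lengths in both and were identical at 95.9%, 97.7%, 96.3% and 98.5% of bases, with a longest identical run of 323 bases in exon 5. Since only reads with a single alignment were counted, reads within such runs could be lost from both genes. The 5'SS ratio of BIP1 was 0.184 for CB-RNA, 0.203 for RNAe, 0.209 for RNAe + RNAf, 0.0366 for RNAf and 0.00253 for mRNA. That of BIP2 was 0.275, 0.175, 0.191, 0.0561 and 0.00626. At the 5'SS BIP2 was higher than BIP1 in CB-RNA and in mRNA with intervals apart, while their intervals overlapped in the other 3 chromatin groups. At the 3'SS the CB-RNA intervals overlapped as well (0.222 to 0.297 and 0.291 to 0.389), and with intron ratios averaged the 5'SS values in CB-RNA were 0.263 and 0.308.

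The introns of the pair shared their extremes at the 5'SS. Introns 3 and 4 were the least spliced in CB-RNA, RNAe and RNAe + RNAf: in RNAe, intron 3 had 0.570 in BIP1 and 0.386 in BIP2, and intron 4 had 0.458 and 0.478. In RNAf intron 3 had 0.0313 and 0.00901, and intron 4 had 0.0186 and 0.0841, so that in RNAf intron 2 of BIP1 was above both and intron 3 of BIP2 was the lowest of its gene. Intron 2 had the lowest 5'SS ratio in RNAe, with 0.0470 in BIP1 and 0.0272 in BIP2, and in both genes its RNAf value was higher (0.0973 and 0.0491). The 3'SS of the same intron gave other values, 0.228 in BIP1 and 0.393 in BIP2 in RNAe.

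This difference between the ends of intron 2 went with unequal exonic reads, a pattern singled out after the values were seen. In RNAe BIP1 had 468 exonic reads before intron 2 and 114 after it, and BIP2 had 367 and 56. In CB-RNA the counts were 465 and 191 for BIP1 and 256 and 112 for BIP2, and in RNAe + RNAf they were 602 and 167, and 393 and 80. In RNAf they were 185 and 203 for BIP1 and 163 and 178 for BIP2, and in mRNA 2440 and 2500, and 1831 and 1909. The step was thus present in the 3 groups with elongating RNA and absent from both polyadenylated groups: the 5'SS over 3'SS exonic reads in RNAe were 4.11 in BIP1 and 6.55 in BIP2, against a median of 0.958 over 37482 introns with at least 50 reads at both ends. The bases on each side of the intron differ at 3 and 2 of 60 positions between the genes, shown in capitals at the end of exon 2 (chr5:10542782-10542841 and chr5:16809866-16809925, minus strand) and at the start of exon 3 (chr5:10542644-10542703 and chr5:16809725-16809784, minus strand):
BIP1 exon 2 end: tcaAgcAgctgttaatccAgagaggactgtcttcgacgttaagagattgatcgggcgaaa
BIP2 exon 2 end: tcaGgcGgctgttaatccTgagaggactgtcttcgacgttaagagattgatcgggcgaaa
BIP1 exon 3 start: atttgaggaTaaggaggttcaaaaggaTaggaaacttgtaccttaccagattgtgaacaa
BIP2 exon 3 start: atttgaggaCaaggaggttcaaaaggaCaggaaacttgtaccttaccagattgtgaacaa
Whether reads shared by the copies play a part in the step was not tested.

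CNX1 encodes calnexin, the lectin chaperone of the ER membrane. Its 5'SS ratio was 0.246 for CB-RNA, 0.198 for RNAe, 0.154 for RNAe + RNAf, 0.0974 for RNAf and 0.00529 for mRNA. It stood at percentile 12.5 of all genes in RNAe and 42.0 in RNAf, so that it was closer to the middle of the genes after polyadenylation than before. Its last introns carried the RNAf value: introns 4 and 5 had 5'SS ratios of 0.143 and 0.112 in RNAf, near their RNAe ratios of 0.146 and 0.142, whereas intron 2 had 0.0125 in RNAf and 0.284 in RNAe.

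CRT1 encodes an ER calreticulin, the soluble lectin chaperone, and had the lowest ratios of the 9 genes in RNAf and in mRNA. Its interval overlapped that of BIP1 in RNAf at the 5'SS (0.0249 to 0.0323 against 0.0286 to 0.0470). The 2 also overlapped in mRNA at the 3'SS (0.00140 to 0.00218 against 0.00200 to 0.00371). The 5'SS ratio of CRT1 was 0.283 for CB-RNA, 0.227 for RNAe, 0.192 for RNAe + RNAf, 0.0283 for RNAf and 0.00127 for mRNA. It stood at percentiles 34.2, 17.8, 18.0, 4.64 and 2.74 of all genes in the same order. Its neighbouring introns 6 and 7 were at opposite ends in RNAe: intron 6 had 28 intronic beside 43 exonic reads at the 5'SS (0.651) and 21 beside 33 at the 3'SS (0.636), while intron 7 had 0 beside 34 and 2 beside 33. In RNAf intron 6 had 0.0406 at the 5'SS and intron 7 had 1 intronic beside 767 exonic reads. Intron 7 had 2 intronic beside 52 exonic reads in CB-RNA, so its low value did not rest on 1 group.

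Exonic reads along CRT1 fell in the middle of the gene in the groups with elongating RNA, which was also singled out after the values were seen. The mean exonic reads per window at introns 6 to 11 were 0.292 of those at introns 1 to 5 in CB-RNA, 0.282 in RNAe and 0.408 in RNAe + RNAf. The same quotient was 2.31 in RNAf and 1.11 in mRNA. Over all genes, only exonic reads at the last intron over those at the first were taken. At the 5'SS CRT1 had 0.319 in RNAe, 3.90 in RNAf and 1.29 in mRNA, against medians of 0.881, 2.72 and 1.31. IRE1A had 0.279 in RNAe and 6.73 in RNAf, so a drop in RNAe and a rise in RNAf were not peculiar to CRT1. At the 5'SS of intron 5 CB-RNA had 237 exonic reads and at that of intron 6 it had 47, while mRNA had 4294 and 3997.

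**Figure D2:**
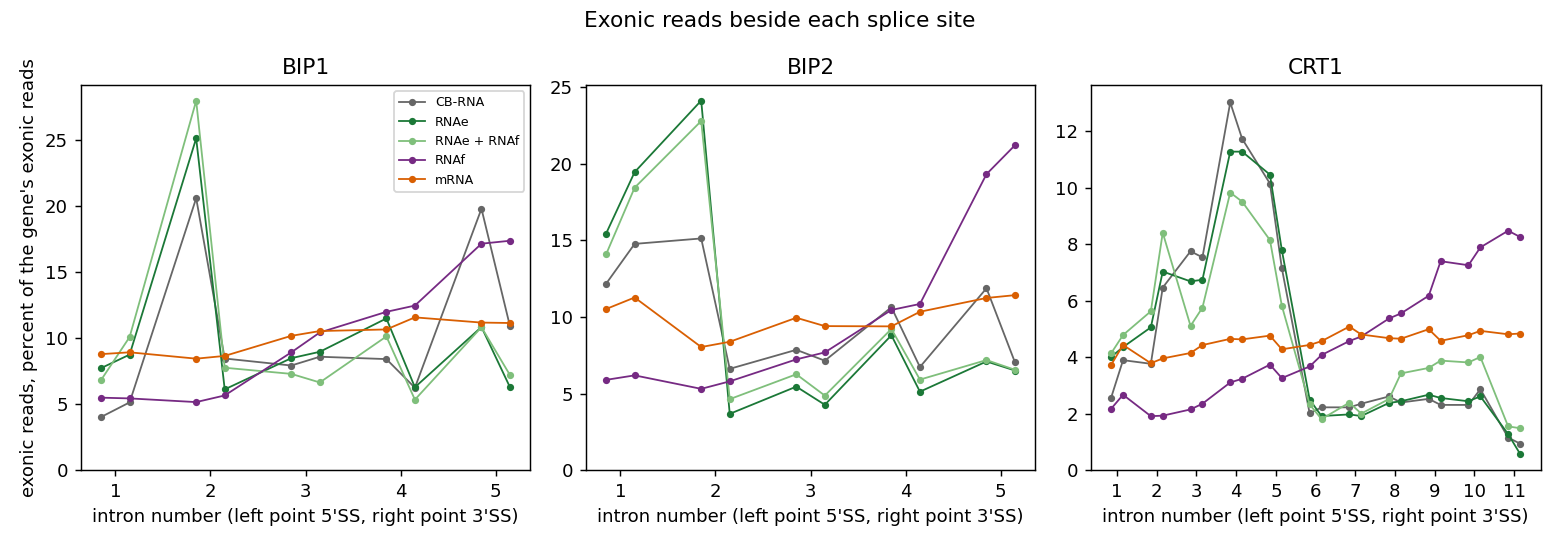
Exonic reads beside each splice site of BIP1, BIP2 and CRT1, as a percent of all exonic reads of the gene, by intron number and RNA group. CB-RNA, RNAe and RNAe + RNAf dropped across intron 2 of BIP1 and BIP2 and between introns 5 and 6 of CRT1, and RNAf and mRNA did not.

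CRT3 encodes the calreticulin known in Arabidopsis for helping immune and hormone receptors to fold and for holding back faulty ones. Its 5'SS ratio was 0.299 for CB-RNA, 0.244 for RNAe, 0.256 for RNAe + RNAf, 0.191 for RNAf and 0.0141 for mRNA. In RNAf its interval (0.180 to 0.202) lay above that of CRT1 (0.0249 to 0.0323) and above that of CNX1 (0.0849 to 0.112), and it stood at percentile 72.2 of all genes.

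The RNAf value of CRT3 came largely from its last introns. Intron 12 had 5'SS ratios of 0.551 for CB-RNA, 0.417 for RNAe, 0.309 for RNAe + RNAf, 0.563 for RNAf (702 intronic beside 1246 exonic reads) and 0.0607 for mRNA. Intron 13 had 0.702, 0.988, 0.646, 0.377 and 0.0288 in the same order. Both were thus still present in polyadenylated chromatin RNA and largely gone from mRNA, where intron 12 had 64 intronic beside 1054 exonic reads. Their RNAf 5'SS ratios stood at percentiles 94.8 and 90.65 of all introns, and their 3'SS ratios were 0.498 and 0.349. Without introns 12 and 13, which were left out after their values were seen, the RNAf ratio of CRT3 was 0.0664 at the 5'SS and 0.0973 at the 3'SS, with 0.190 in RNAe at the 5'SS.

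The introns before them were lower in RNAf. Intron 1 had 0 intronic beside 251 exonic reads at the 5'SS, and intron 8, with the GC start, had 2 beside 585 at the 5'SS and 25 beside 619 at the 3'SS. Intron 8 was therefore as low in RNAf as in mRNA at the 5'SS (0.00342 against 0.00398) but not at the 3'SS (0.0404 against 0.00839). Intron 9 was intermediate, with 0.150 at the 5'SS and 0.276 at the 3'SS in RNAf. Intron 3 was the lowest of the gene at the 5'SS in RNAe, at 0.0470.

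**Figure D3:**
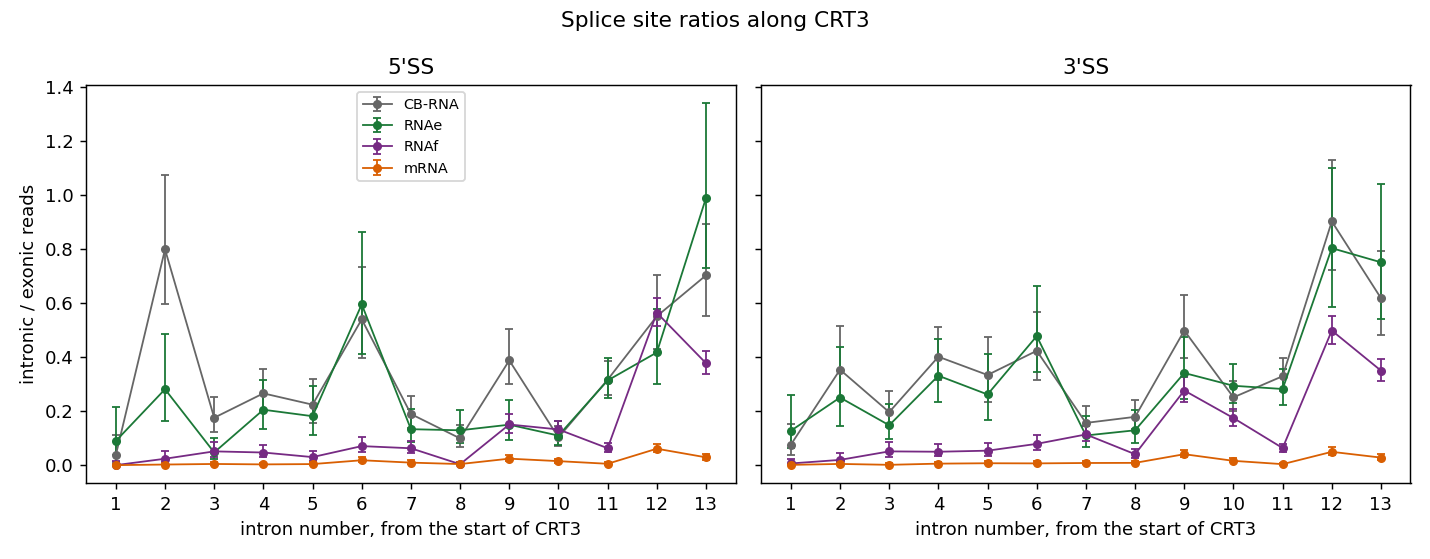
Ratio of intronic to exonic reads at each intron of CRT3, from the start of the gene, at the 5'SS and 3'SS in CB-RNA, RNAe, RNAf and mRNA, with 95% Wilson intervals of counting error. RNAf rose to 0.563 at the 5'SS of intron 12, while mRNA was at most 0.0607.

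Counted over introns, an intron was called where its ratio, with 0.5 added to both reads, differed 2-fold or more between groups. CB-RNA was higher than mRNA at 53 of 53 member introns at the 5'SS, where 95.9% of all introns were called, and at 52 of 52 at the 3'SS, where 96.3% were. RNAf was higher than mRNA at 49 of 53 member introns at the 5'SS (92.5%), against 79.3% of all introns, and at 51 of 52 at the 3'SS (98.1%), against 81.8%. The 5'SS introns not called higher were intron 1 of IRE1A, intron 8 of CRT3, intron 4 of IRE1B and intron 7 of CRT1, and the last was also the exception at the 3'SS. Of these, only intron 1 of IRE1A was 2-fold lower (1.89% of the members), where 3% of all introns were called lower. At the 3'SS 0 members were lower, against 2.26% of all introns. The 49 include intron 1 of CRT3, which had 0 intronic reads in both groups and passed only through the reads added. The median fold of RNAf over mRNA was 11.4 at the 5'SS and 11.03 at the 3'SS in the members, against 5.25 and 5.76 over all introns. Member introns had more reads than all introns. Median 5'SS exonic reads were 1088 against 461 in mRNA and 378 against 218.5 in RNAf. These shares and medians were thus not compared at equal depth, and the 0.5 added weighs more where reads are few. Intron 1 of CNX1 had a 5'SS fold of 48.7, from 13 intronic reads in RNAf and 4 in mRNA. The folds of 51.7 at the 5'SS of intron 3 of CRT1 and 69.5 at the 3'SS of intron 3 of BIP2 each rested on 1 intronic read in mRNA. Introns without intronic reads in mRNA were set against a floor of 3 reads there. The fold was then 24.6 at the 5'SS of intron 1 of CRT1, with 8 intronic reads in RNAf. It was 17.6 at the 3'SS of intron 1 of BIP1, with 4. These folds take the RNAf ratio without its counting error, so they are not strict lower bounds.

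RNAe was higher than RNAf at 40 of 52 member introns at the 5'SS (76.9%), near the 79.6% of all introns, and at 40 of 51 at the 3'SS (78.4%), near the 79.1% of all. In CRT1 all 11 tested introns at the 5'SS and all 10 at the 3'SS were called, but intron 7 passed at the 5'SS only through the reads added, since it had 0 intronic beside 34 exonic reads in RNAe and 1 beside 767 in RNAf. In CRT3 9 of 13 were called at each site. RNAe was 2-fold lower at 1 member intron at the 5'SS, intron 2 of BIP1 (0.0470 against 0.0973), where 1.78% of all introns were called lower, and at 0 at the 3'SS, where 0.992% were. The next lowest 5'SS folds were 0.550 at intron 2 of BIP2 and 0.744 at intron 12 of CRT3. At the 3'SS of intron 2, RNAe was above RNAf in BIP1 (0.228 against 0.167) and in BIP2 (0.393 against 0.0955). Exonic reads beside this intron were unequal in RNAe, as given above, so its 5'SS folds may not measure splicing alone. Among introns with intronic reads in both groups, the largest 5'SS folds were 34.6 at intron 3 of BIP2, 30.8 at intron 8 of CRT3 and 23.3 at intron 4 of BIP1. Intron 3 of BIP2 had 2 intronic reads in RNAf, as did intron 8 of CRT3. With a floor of 3 reads in place of 0 in RNAf, the 5'SS fold was 7.47 at intron 1 of CRT3 and 7.35 at intron 1 of IRE1A. These too leave out the counting error of RNAe.

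**Figure D4:**
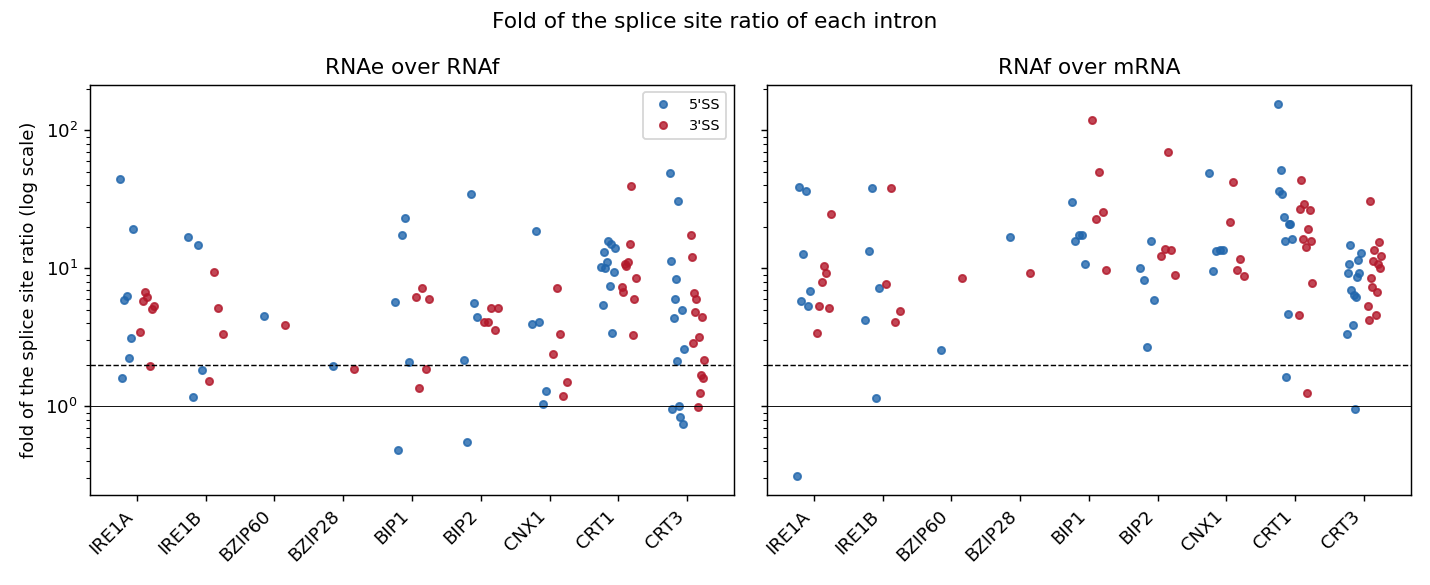
Fold of the splice site ratio at each tested intron of the 9 genes (log scale), RNAe over RNAf on the left and RNAf over mRNA on the right, with 0.5 added to reads. The dashed line is a fold of 2. Points with 0 intronic reads in either group depend on the reads added, such as the 5'SS of CRT1 intron 7 with 0 in RNAe. CRT3 had RNAe over RNAf folds on both sides of 1.

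No member intron was retained in mRNA by a ratio of 0.1 or more, 0 of 53 at the 5'SS and 0 of 52 at the 3'SS, where 7.44% and 8.28% of all introns reached it. The highest mRNA ratio among them was that of CRT3 intron 12. In the other genes of ER folding and stress, a list of 28 genes with 251 introns that includes protein disulfide isomerases, the Golgi protease S1P and degradation factors such as HRD1A, 3 of 240 introns reached 0.1 at the 5'SS and 6 of 241 at the 3'SS. In that list RNAf was higher than mRNA at 198 of 235 introns at the 5'SS (84.3%) and lower at 6 (2.55%). Over all introns these shares were 79.3% and 3%. At the 3'SS RNAf was higher at 194 of 236 introns of the list (82.2%), against 81.8% of all introns. RNAe was higher than RNAf at the 5'SS at 181 of 205 (88.3%) and lower at 2 (0.976%), against 79.6% and 1.78%. At the 3'SS RNAe was higher at 183 of 210 (87.1%), against 79.1% of all introns. The median fold of RNAe over RNAf at the 5'SS was 9.39 in the list and 5.50 in the members.

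With and without polyadenylated RNA, member introns differed in both directions. At the 5'SS, RNAe was 2-fold or more above RNAe + RNAf at 8 of 49 introns and 2-fold or more below at 4. At the 3'SS it was above at 4 of 50 and below at 1 by that fold. The share of all introns with such calls was not computed, so these counts cannot be read as particular to the members. The call at the 5'SS of intron 2 of IRE1A depends on the reads added, since its RNAe + RNAf ratio was 0. The median difference of RNAe minus RNAe + RNAf was 0.0311 at the 5'SS over 49 introns, of which 33 were higher in RNAe, and 0.0337 at the 3'SS over 50 introns, of which 30 were higher. Over all introns the medians were 0.0276 and 0.0314, and 59.4% and 60.1% were higher in RNAe. Between the preparations that kept all but rRNA, CB-RNA minus RNAe + RNAf was 0.0696 at the 5'SS (37 of 49 higher) and 0.0702 at the 3'SS (37 of 51 higher), against 0.0124 and 0.0103 over all introns, of which 54.4% and 53.4% were higher. CB-RNA was also higher than RNAe, by 0.0406 at the 5'SS (33 of 52) and 0.0491 at the 3'SS (34 of 52), whereas over all introns the medians were -0.0150 and -0.0206. BZIP28 was among the genes with such a difference, at 0.455 in CB-RNA and 0.169 in RNAe + RNAf at the 5'SS. Its intervals overlapped, from 0.322 to 0.644 in CB-RNA and from 0.0877 to 0.327 in RNAe + RNAf.

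Intron order was followed in part of the genes. In RNAe the last intron had a higher 5'SS ratio than the first in 4 of 7 genes with at least 3 introns, which were IRE1A, BIP2, CRT1 and CRT3, and in 3 of 6 at the 3'SS. Over all genes the last intron was higher in 65.0% at the 5'SS and 63.6% at the 3'SS. The largest rise was in CRT3, from 0.0893 to 0.988 at the 5'SS, and the largest fall at that site was in CNX1, from 0.290 to 0.142. At the 3'SS the largest fall was in IRE1B, from 0.850 at its first intron, with 20 exonic reads, to 0.372. RefSeq transcripts differ at that 3'SS, which had 2 exonic reads in mRNA, so this fall cannot be read as intron order. The next fall at the 3'SS was in CNX1, from 0.254 to 0.147. In RNAf the last intron was higher at the 5'SS in 7 of 7 genes, against 56.7% of all genes, and at the 3'SS in 4 of 6, against 53.1%. In CB-RNA it was higher in 5 of 7 at the 5'SS, against 59.2%, but in 1 of 7 at the 3'SS, against 56.7%. In RNAe + RNAf the counts were 4 of 6 at the 5'SS, against 56.1% of all genes, and 3 of 5 at the 3'SS, against 53.4%. In mRNA they were 6 of 7, against 58.2%, and 4 of 6, against 57.3%. Summed sets of final and initial introns were also compared in place of single ones. The 5'SS count in RNAf was then 5 of 7, with IRE1B and BIP1 as the exceptions. In RNAe the counts were then 5 of 7 at the 5'SS and 4 of 7 at the 3'SS.

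The share of exonic reads beside splice sites that fell on a gene compares its RNA on chromatin with that in mRNA. The log2 of the mRNA share over the RNAe share was above the median of all genes (-0.47) in 4 of 9 genes: CRT1 with 1.76, CNX1 with 0.96, BIP1 with 0.00 and BIP2 with -0.05. It was below it in the sensors and transcription factors, with -1.70 in IRE1A, -1.31 in IRE1B, -1.31 in BZIP60 and -1.01 in BZIP28, and in CRT3 with -1.09. Set against RNAe + RNAf instead, a choice added after the values were seen, 2 of 9 genes were above the median of all genes (-0.55), CRT1 with 1.48 and CNX1 with 0.08. BIP1 had -0.64 and BIP2 -0.66 on that scale, below the -0.57 of BZIP28, so the place of the BIP genes depended on the chromatin group. In whole seedlings, fewer cells with a transcript and less RNA per cell cannot be told apart.

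The genes whose 10 log2 ratios were nearest to those of a member were found among 8506 genes with enough reads. They were ACO3 for CRT1 at a distance of 0.59, P5CR for CRT3 at 0.59, GLB1 for CNX1 at 0.58, CEV1 for BIP1 at 0.56 and ACX1 for BIP2 at 0.62, AT2G29070 for IRE1B at 0.58 and AT1G19660 for IRE1A at 0.49. BZIP60 and BZIP28 had too few reads for this measure. The median distance to other genes ran from 2.75 for IRE1A to 5.95 for CRT1.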

How the data were processed

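RNA of 11 libraries in 5 groups was used as the authors' tables give it. Per the labels and the methods, the authors trimmed the reads (Trimmomatic 0.39), mapped them to TAIR10 (HISAT2 2.2.0, SAMtools 1.3.1), dropped reads with more than 1 alignment, kept genes above an FPKM minimum (StringTie) and took the introns of the longest transcript. The deposited score of each splice site is the SS ratio, and the deposited text of exonic and intronic read counts beside it gave the reads. The ratio differed from intronic over exonic reads by at most 5e-05. The width of the windows, the use of strand in counting and how libraries were joined are not given in the sources used here. The kit marks strand, and no other annotated gene overlaps a member (0 in each).

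Gene ratios are summed intronic over summed exonic reads. Fold calls needed at least 20 exonic reads in both groups and gene percentiles at least 100. Introns with the highest or lowest RNAe ratio of a gene, an mRNA ratio of 0.1 or more, or the 3 largest or smallest folds could be named by rule. Not all of these are given, and others were named after their values were seen. Members and lists were chosen with earlier results of these data known. Of 30 other ER genes, 28 matched their symbol. Coordinates are those of TAIR10, and 98.8% of the introns read GT to AG in RefSeq TAIR10.1. Simulated reads were used to try the call of RNAe over RNAf at the 5'SS, with planted folds above 2 in the deeper introns. Intervals were tried on simulated intronic shares that left out the lowest values. Neither trial covers folds of 2 or the low ratios of mRNA. Python 3.11.15, numpy 2.4.6, pandas 2.3.3 and matplotlib 3.10.9 were used. Alternatives were other read minimums (10, 50), folds (1.5, 4), added reads (1), a retained ratio of 0.05, summed or averaged introns and the exclusion of BIP1 and BIP2. The sequence at the end of CRT3 is not reported here.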

Additional observations from a re-analysis of the deposited data

How the results depend on the processing

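No paired analysis was possible because each table holds 1 pooled set of values per group, and for the same reason no library could be left out. The counts of introns called between groups stayed within 1.5 times of those reported at every other minimum of reads, fold and number of added reads tried. They did so without BIP1 and BIP2 too, but that setting only takes introns away and could hardly leave this wide band. At a fold of 4, RNAe was higher than RNAf at 32 of 52 member introns at the 5'SS and 30 of 51 at the 3'SS. Shares of all introns at the other folds, minimums and added reads were not computed. Without BIP1 and BIP2, the median of RNAe minus RNAe + RNAf at the 5'SS was 0.0591 over 39 introns, and that of CB-RNA minus RNAe + RNAf at the 3'SS was 0.0930 over 41. With at least 50 exonic reads, CB-RNA minus RNAe + RNAf at the 5'SS was 0.0407 over 36 introns. At an mRNA ratio of 0.05 or more, 1 member intron was retained at the 5'SS, intron 12 of CRT3, against 14.4% of all introns. With RNAe + RNAf in place of RNAe, a setting added after the data were seen, 2 genes instead of 4 had an mRNA share above the median. The cause of these shifts was not tested, beyond the fewer introns that each setting leaves. Of the gene ratios, 17 of 90 moved beyond their counting interval when intron ratios were averaged instead of summed, and 18 of 90 when both splice sites were summed. The thinnest group was RNAe + RNAf, in which 49 of 53 had at least 20 exonic reads at the 5'SS.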
